A study of Vitis x labruscana x Vitis vinifera with 36 samples.

Results

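Transcript changes between sampling stages 1 and 3 were measured in the flesh of seeded 'Shine Muscat' berries, a table grape from a Vitis labruscana by Vitis vinifera cross. The members are the 6 RNA sequencing libraries that the labels call seeded, flesh, and stage 1 or 3, with 3 in each stage, out of 36 libraries in the series. The other libraries come from seedless berries, from skin, and from stage 4. Used beside these 6 were seedless flesh at stages 1 and 3 (3 libraries each), seeded skin at stages 1 and 3 (3 each) and seeded and seedless flesh at stage 4 (3 each). All groups share the cultivar. Seedless berries are the treated ones and seeded berries the nontreated ones, by the title of the series. Agent, dose, vine age and the dates behind the stage numbers: not given in the sources used here. The labels do not say whether the 3 libraries of a group came from separate vines, clusters or berries, so the p-values measure the spread between these libraries, which may be technical.

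As background, the flesh of a grape berry grows first by cell division and expansion while it stores organic acids. At the onset of ripening, called veraison, it softens, takes up hexose sugars through cell wall invertase and hexose transporters, and loses malate. Abscisic acid promotes this switch, and developing seeds are a source of auxin, gibberellin and other hormones for the young fruit. Where stages 1 and 3 lie on that course is not stated in the labels, and no marker gene was used to place them. The count table pairs no identifier with a gene name and no annotation was used, so genes are given by identifier, no function is stated, and the flesh label was not checked against marker genes. The first number of a VIT identifier is its chromosome and the number after the letter s its scaffold.

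Depth differed between the stages. The stage 1 libraries held 711582, 608901 and 1252664 counts (replicates 1, 2 and 3) and the stage 3 libraries 4100253, 3315373 and 2984933. No stage 1 library was as deep as any stage 3 library, so depth and stage cannot be told apart by the design, and the counts of changed genes and the changes of the named genes are also given with all 18 flesh libraries thinned to 608901 counts (all 36 where skin is compared). Overlaps, read shares and the calls within seedless flesh or skin are at full depth. At that equal depth the stage 1 libraries held 13518 ± 280 genes with a read and the stage 3 libraries 13740 ± 39.9 (SD, n = 3). Stage 1 libraries also spread more: at equal depth their pairwise correlations of log2(CPM + 1), with CPM the counts scaled to a common library total, were 0.877 to 0.889, against 0.914 to 0.916 within stage 3 and 0.854 to 0.878 between the stages. Rows with ENSRNA identifiers took 3.14%, 0.923% and 1.17% of the counts at stage 1 and 0.455%, 0.434% and 0.304% at stage 3. The shares of the stages do not overlap. The lowest stage 1 share had a 95% exact Clopper-Pearson interval from 0.900% to 0.948%, and the highest stage 3 share one from 0.448% to 0.461%; intervals here cover counting error only.

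Between stage 1 and stage 3, seeded flesh changed in both directions. Of 13639 genes tested with edgeR's quasi-likelihood test, 2413 passed an adjusted p of 0.05, which is 17.7%. Of these, 1232 were higher at stage 3 (9.03% of tested genes) and 1181 were lower (8.66%). The median called rise was 0.85 log2 units, a 1.80-fold change, and the median called fall was -1.01 log2 units, a 2.02-fold change. By fitted fold change, 131 genes rose and 190 fell by at least 4-fold, and 48 rose and 66 fell by at least 8-fold. By at least 16-fold, 31 rose and 20 fell. Of the called rises, 25 had no read at stage 1, and 2 of the called falls had none at stage 3. The fitted size of such a gene is not a measured ratio. At equal depth, 46 rose and 85 fell by at least 4-fold and 2 rose and 5 fell by at least 16-fold. Over all tested genes the median change was 0.05 log2 units, with 90% of genes between -1.35 and 1.38. In bulk tissue, fewer cells of a type and less RNA per cell cannot be told apart.

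At equal depth fewer genes passed and the balance moved towards falls. Of 9027 genes tested there, 1447 were called (16%), 603 higher and 844 lower, and over 10 random thinnings the count ran from 1397 to 1495. The share of calls that were rises was 51.1% at full depth, 41.7% at equal depth (40.3% to 43.1% over the thinnings) and 44.5% with median-ratio scaling in place of TMM scaling. A fit of only the 6 libraries called 596 rises and 905 falls. The numbers of rises and falls therefore do not show that one direction outweighed the other, while a lower count of rises than falls held at equal depth in all 10 thinnings. Of the 2413 genes, 2073 were also tested at equal depth. Called again were 1304 of them, 573 as rises and 731 as falls, and 0 changed direction. The thinned counts are drawn from the same reads, so this is no independent check of direction. A core of 748 genes, 307 higher and 441 lower, was called in the same direction in each of 16 alternative treatments of the data.

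**Figure D1:**
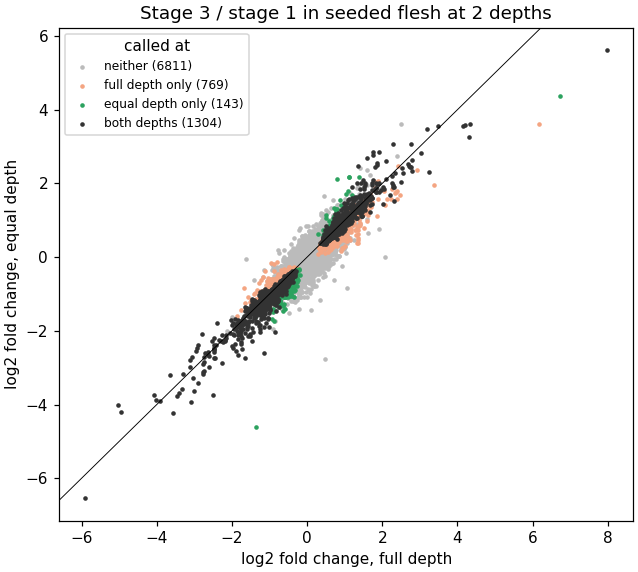
The log2 fold change from stage 1 to stage 3 in seeded flesh is plotted at equal depth against full depth, 1 point per gene tested at both; the line marks equal values. The 1304 genes called at both depths lie on the same side of 0 on both axes, where both axes draw on the same reads. At full depth only, 769 were called, and at equal depth only, 143.

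The calls depended on how strongly a gene was read. Among genes averaging 100 CPM or more over the 6 libraries, 39.4% were called, 340 as rises and 408 as falls. Between 10 and 30 CPM, 14.6% were called, and below 2 CPM 3.20%. The median standard error of the log2 change was 0.14 in the highest of these classes and 1.19 in the lowest, so a 2-fold change in the weakest genes was not detectable at this depth. At equal depth the genes of at least 100 CPM gave 232 rises and 413 falls, a ratio that differs from the one at full depth.

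**Figure D2:**
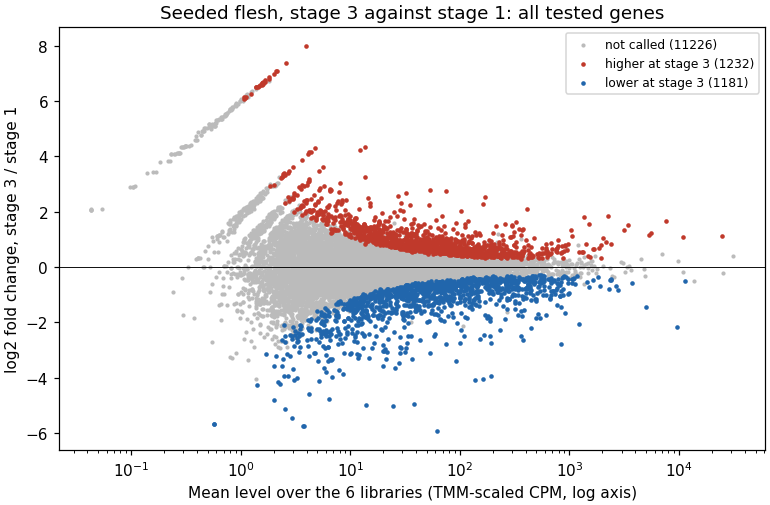
Each point is 1 of the 13639 tested genes, with its mean level in the 6 seeded flesh libraries on a log axis and its log2 fold change from stage 1 to stage 3. The 1232 rises and 1181 falls thin out towards low levels, where only large changes were called.

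The named genes passed at both depths, did not overlap between the stages and averaged 10 CPM or more. Non-overlap alone was met by 29.4% of tested genes. Under that rule 538 rises and 681 falls were eligible, and the 12 largest each way were examined. The 12 rises went from stage 1 means of 1.17 to 56.9 CPM to stage 3 means of 23.6 to 285 CPM, by 2.30 to 4.34 log2 units. The 12 falls went from 26.9 to 360 CPM down to 1.53 to 23.1 CPM, by -3.30 to -5.91 log2 units. Each set of 12 came from 9 chromosome numbers. The reads behind the stage 1 values were 3 to 127 per gene for the rises and 61 to 824 for the falls, so the falls rest on more reads at the shallow stage.

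The largest rise was in VIT_07s0130g00200 on chromosome 7. It had 0, 3.59 and 0.862 CPM at stage 1, from 3 reads in all, and 22.5, 27.3 and 28.4 CPM at stage 3, from 248 reads. Every stage 3 library lay far above every stage 1 library. The fitted rise was 4.34 ± 0.55 log2 units (SE; edgeR adjusted p = 2.6e-07) and 3.62 ± 0.65 at equal depth (edgeR adjusted p = 2.4e-05). With each library of the contrast left out in turn, the rise ran from 3.87 to 5.52. The 3.87 came without replicate 1 of stage 1. The 5.52 came without replicate 2 of stage 1, which holds 2 of the 3 reads. With so few stage 1 reads the size is loosely set: the ratio of pooled reads was 20.5, with a 95% exact Poisson interval from 6.92 to 99.9. At stage 4 the level was 55.8 ± 18.9 CPM (SD, n = 3). In seedless flesh it went from 11.3 ± 1.07 to 50.4 ± 2.24 CPM between the same stages, a rise of 2.15 ± 0.21 log2 units; the difference between the seeded and seedless rises missed the threshold (2.18 ± 0.75 log2 units; edgeR adjusted p = 0.064) and was 0.96 log2 units at equal depth (edgeR adjusted p = 0.63).

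VIT_16s0039g00880 on chromosome 16 followed. It had 0, 1.79 and 1.72 CPM at stage 1, again from 3 reads, and 24.6, 23.7 and 22.6 CPM at stage 3, from 229 reads. The stages did not overlap, and the 3 stage 3 values were close together. The rise was 4.21 ± 0.52 log2 units (SE; edgeR adjusted p = 1.2e-07) and 3.58 ± 0.65 at equal depth (edgeR adjusted p = 2.8e-05). With a library left out it ran from 3.74, without replicate 1 of stage 1, to 4.84, without replicate 3 of stage 1. The rise was 4.86 with only the 6 libraries at equal depth. The ratio of pooled reads was 18.9 with an interval from 6.38 to 92.3. At stage 4 it was at 14.6 ± 2.40 CPM, between the earlier levels. Seedless flesh already held 10.6 ± 3.26 CPM at stage 1 and reached 29.0 ± 2.17 CPM at stage 3.

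The largest fall was in VIT_01s0011g02720 on chromosome 1. It had 114, 106 and 143 CPM at stage 1 and 1.04, 1.65 and 3.65 CPM at stage 3. All stage 1 libraries were high and all stage 3 libraries low, with 303 and 19 reads. The fall was -5.91 ± 0.52 log2 units (SE, edgeR adjusted p = 1.3e-08) and -6.54 ± 0.49 at equal depth. With a library left out it ran from -6.50, without replicate 3 of stage 3, to -5.52, without replicate 1 of stage 3. The ratio of pooled reads, stage 1 over stage 3, was 64.5 (95% exact Poisson interval 40.6 to 109). At stage 4 it stayed low, at 0.622 ± 0.728 CPM. The gene with the next lower identifier on the same scaffold was also among the 12 largest falls, from 262 to 15.8 CPM in the mean. Whether the pair shares reads was not assessed.

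VIT_04s0008g05640 on chromosome 4 had 65.5, 23.3 and 55.2 CPM at stage 1 and 1.29, 0 and 3.28 CPM at stage 3. The stage 1 libraries were more widely spread for their mean than those of the other falling gene, but none came near the stage 3 values. The fall was -5.02 ± 0.62 log2 units (SE; edgeR adjusted p = 2.6e-07). It was -4.00 ± 0.62 at equal depth (edgeR adjusted p = 1.3e-06). With a library left out it ran from -6.03 ± 0.75, without replicate 3 of stage 3, to -4.46 ± 0.62, without replicate 2 of stage 3. The pooled ratio was 35.2 (interval 20.2 to 66.3) from 122 and 14 reads. Its level at stage 4 was 0.334 ± 0.332 CPM. In seedless flesh it fell from 5.85 ± 1.75 to 0.414 ± 0.405 CPM.

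**Figure D3:**
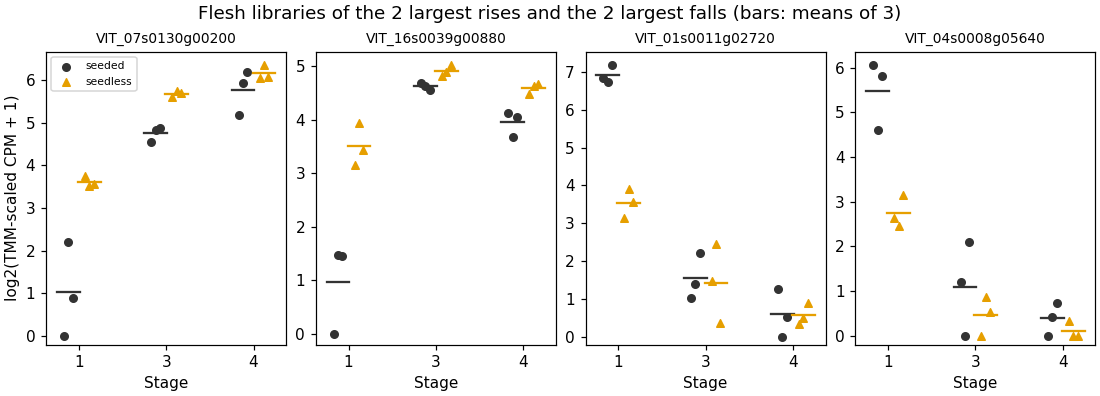
Levels of the 2 largest rises and 2 largest falls are shown as log2(CPM + 1) in the 3 flesh libraries of each stage, for seeded (circles) and seedless (triangles) berries; short lines are means of 3. At stage 1 the seeded libraries lie below the seedless ones for both rises and above them for both falls. Between stages 1 and 3 the seeded groups do not overlap for any of the 4 genes, which was a condition of their choice.

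Genes that took many reads in the library changed too. Of the 5 genes with the most reads at stage 1 and the 5 at stage 3, 3 were in both sets. One of these had 10555, 20246 and 15517 CPM at stage 1 and 32520, 34537 and 33797 CPM at stage 3, a rise of 1.12 ± 0.16 log2 units (SE; edgeR adjusted p = 2.1e-05). The other 2 shared genes did not pass: one was at 26903 ± 6233 and 35786 ± 5856 CPM (edgeR adjusted p = 0.14), the other at 27206 ± 2386 and 23587 ± 1345 CPM (edgeR adjusted p = 0.18). An ENSRNA row was among the top 5 at stage 1 only. It had 27841, 8342 and 10812 CPM there and 3967, 3796 and 2662 CPM at stage 3, and its change was -2.17 ± 0.57 log2 units (SE; edgeR adjusted p = 0.020). In the fit of only the 6 libraries this call was lost (edgeR adjusted p = 0.095), while at equal depth the change was -2.26 ± 0.56 and passed (edgeR adjusted p = 0.015). Its 3 stage 1 libraries were all higher than the stage 3 ones but differed among themselves by more than the stage 3 libraries did. Of 39 ENSRNA rows tested, 2 rose and 9 fell, where 9.03% of all tested genes rose and 8.66% fell. With all ENSRNA rows left out before scaling, 2406 genes were called, 1208 higher and 1198 lower.

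The top 100 genes by reads shared 78 members between the stages. The 10 genes with the most reads took 13.9 ± 0.781% of the reads at stage 1 and 15.7 ± 0.205% at stage 3, at equal depth (SD, n = 3). The lowest stage 3 library, at 15.5%, lay above the highest stage 1 library, at 14.8%. With 3 libraries against 3 a two-sided exact permutation test cannot give a p below 0.10, so this was not tested further.

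At equal depth 1350 genes had reads in stage 3 but none in the 3 stage 1 libraries, and 1269 had the reverse. Among genes with at least 10 reads in the one stage, these numbers were 5 and 15. At full depth 0 reads at stage 1 allow a level of up to 1.17 CPM, taken as 3 counts over the pooled reads, and 0 reads at stage 3 up to 0.288 CPM.

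Called genes were spread over the genome. By the chromosome number in the identifier, the called share ran from 14.7% on chromosome 3 to 21.2% on chromosome 6, around the 17.7% of all tested genes. Genes with consecutive identifiers were called together somewhat more often than genes at large: the next gene after a riser was a riser in 12.1% of cases against 9.26% after any gene, and the next gene after a faller a faller in 10.8% against 8.49%. At equal depth these shares were 8.33% against 4.81% and 9.47% against 6.18%. They are a description of 7397 neighbour pairs, in which shared or overlapping reads were not assessed. Pairs were not matched by level, on which calling depended. The same pairs were used at equal depth, where genes not tested counted as not called.

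In 4 places at least 4 consecutive genes were called in the same direction; these were picked out after their values were seen. On scaffold 0090 of chromosome 19, 4 neighbours together had 5460, 10430 and 7541 CPM at stage 1 and 20556, 26267 and 23027 CPM at stage 3. Their stages did not overlap, each gene rose by 1.33 to 1.82 log2 units, and all 4 were called at equal depth as well. In seeded skin all 4 rose too, with a median of 2.23 log2 units, and in seedless flesh 1 of the 4 was called as a rise, with a median of 0.34. On scaffold 0102 of chromosome 5, 4 neighbours fell together, from 408, 163 and 214 to 72.7, 73.7 and 60.5 CPM. All 4 fell in seeded skin (median -1.98 log2 units) and 0 of 4 in seedless flesh by the adjusted threshold (median 0.17). The longest run held 7 falling genes on sequence not placed on a chromosome, of which 5 were called at equal depth; together they went from 1208 ± 299 to 592 ± 31.3 CPM. The remaining run, 4 rising genes on scaffold 0005 of chromosome 7, kept 1 call at equal depth.

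The change in seeded flesh was set beside that in seedless flesh, which shares no library with it. Seedless flesh gave 789 calls between stages 1 and 3 (5.78% of tested genes), 339 higher and 450 lower. Called in the same direction in both were 280 genes, 104 rises and 176 falls, which is 11.6% of the seeded calls and 35.5% of the seedless calls; 83 were called in opposite directions. In the 8878 genes that averaged 10 CPM or more, the 2 sets of log2 changes correlated at 0.26, and in all 13639 at 0.19. These values are across genes, and genes are not replicates. For the genes that rose in seeded flesh by a median of 0.85 log2 units, the seedless median was 0.09. For the genes that fell by a median of -1.01 log2 units, it was -0.18. Calling chose these genes for a large seeded value, so the gap between the medians is a description.

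The difference between the seeded and the seedless change was tested itself. It passed an adjusted p of 0.05 in 1095 of 13639 genes (8.03%; edgeR interaction contrast), with the seeded change the more positive in 595 and the more negative in 500. With library totals in place of TMM scaling the split was 380 and 680, with median-ratio scaling 466 and 558, and at equal depth 212 and 270, so neither direction prevailed under all of them. Between TMM and library totals the median difference over all genes moved from 0.06 to -0.06 log2 units. The seeded change was the larger in size in 924 of the 1095 genes (84.4%), and in 780 the changes had opposite signs. Calling chose these genes for the gap, and neither count was set against all tested genes or repeated at equal depth. Both are therefore descriptions. The difference count at equal depth was 482.

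The size of change was also estimated without choosing genes by a test. In the 9002 genes averaging 10 CPM or more in flesh, the root mean square change between stages 1 and 3 was computed on log2(CPM + 1) from products of distinct libraries only, which removes noise independent between libraries. It was 0.525 ± 0.030 log2 units in seeded flesh and 0.305 ± 0.017 in seedless flesh (jackknife SE, n = 3 per stage). Leaving out each library in turn gave 0.496 to 0.547 and 0.291 to 0.319, which do not overlap. At equal depth the estimates were 0.517 ± 0.032 and 0.316 ± 0.019. No test of this difference over libraries was made. The later change in seeded flesh, from stage 3 to stage 4, was 0.663 ± 0.040 on the same measure and shares the stage 3 libraries.

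The gap between seeded and seedless changes can be read from single genes. VIT_10s0003g01020 on chromosome 10 had 10.2, 28.7 and 20.7 CPM in seeded flesh at stage 1 and 126, 117 and 148 CPM at stage 3. In seedless flesh it had 76.7, 67.5 and 77.9 CPM at stage 1 and 44.6, 37.7 and 41.3 CPM at stage 3. No library overlapped between the stages in either case, which in seeded flesh, the side with the larger change, was a condition of choice. The directions were opposite: a rise of 2.73 ± 0.23 log2 units in seeded and a fall of -0.85 ± 0.16 in seedless flesh (SE). The difference was 3.58 ± 0.28 (edgeR adjusted p = 6.2e-12) and 3.24 ± 0.38 at equal depth (edgeR adjusted p = 4.3e-09). VIT_07s0005g01980 on chromosome 7 showed the reverse. In seeded flesh it went from 17.5, 28.7 and 13.8 CPM to 2.33, 6.25 and 0 CPM, and in seedless flesh from 2.33, 3.16 and 3.63 CPM to 21.3, 19.0 and 15.2 CPM. Its difference was -5.29 ± 0.75 log2 units (SE; edgeR adjusted p = 1.6e-05). It was -4.89 ± 0.99 at equal depth (edgeR adjusted p = 0.00056). With a library left out it ran from -6.38, without replicate 2 of seeded flesh stage 3, to -4.76, without replicate 3 of that group. At stage 4 both kinds of berry were low, at 0.227 ± 0.222 and 0.706 ± 0.751 CPM.

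**Figure D4:**
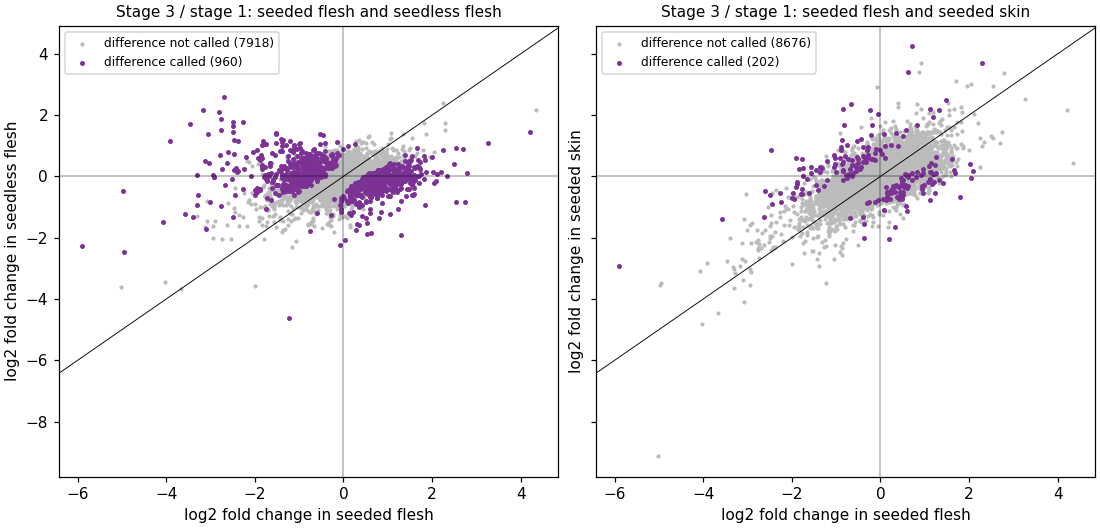
The log2 fold change from stage 1 to stage 3 in seeded flesh is plotted against that in seedless flesh (left) and in seeded skin (right) for the 8878 genes averaging 10 CPM or more; lines mark equal values. The difference of changes was called in 960 of these genes on the left and 202 on the right. These counts come from separate fits, of 18 and 36 libraries, whose errors differ, so they do not measure likeness. Points follow the line of equal values more closely on the right.

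The called genes were also followed as a share of all reads in each flesh library. The 1232 rising genes took 12.1%, 14.8% and 13.9% of reads in seeded flesh at stage 1 and 24.4%, 25.002% and 24.5% at stage 3. These values follow from the choice of genes. The seedless libraries were outside this contrast, though they entered the filter, scaling and estimate of spread. In them the same genes took 21.2%, 20.9% and 20.8% at stage 1 and 22.6%, 23.2% and 23.8% at stage 3. Seedless flesh at stage 1 lay between the seeded stages and nearer to the later one. The choice of genes set the seeded shares apart, so this position is a description. The 1181 falling genes took 27.7%, 23.1% and 24.2% of reads in seeded flesh at stage 1 and 13.7%, 13.97% and 13.9% at stage 3. They took 15.8% to 16.3% in seedless flesh at stage 1 and 14.3% to 15.8% at stage 3. In seeded flesh at stage 4, also outside the contrast, the rising genes took 26.4% to 28.4% and the falling genes 9.97% to 11.3%, in both cases beyond the stage 3 values.

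**Figure D5:**
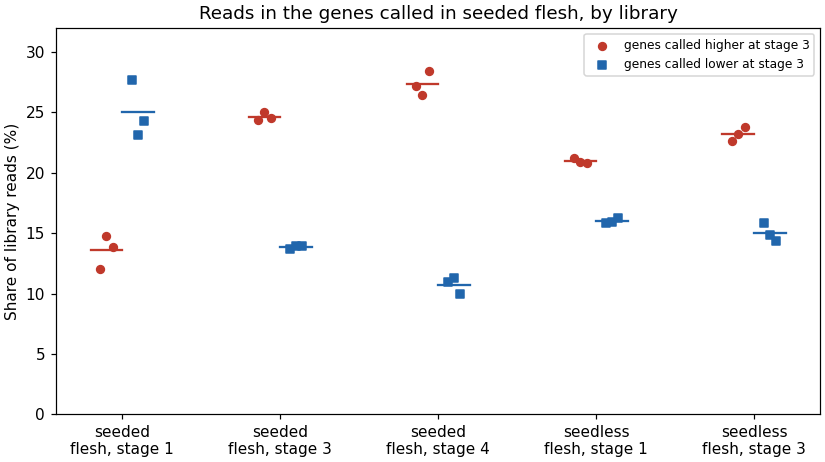
The share of each library's reads that fell in the 1232 genes called higher (circles) and the 1181 genes called lower (squares) at stage 3 in seeded flesh is shown by group; short lines are means of 3 libraries. Seeded flesh at stage 1 stands apart with 12.1% to 14.8% for the former and 23.1% to 27.7% for the latter, which follows from the choice of genes. Seedless flesh at stage 1 lies close to the stage 3 groups, which is a description. Seedless libraries were outside the contrast but entered its filter, scaling and estimate of spread.

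The same stages were compared in seeded skin. Of the 13639 genes, 2783 were called in skin between the same stages, in a fit of all 36 libraries in which 19.8% of 14841 tested genes were called. Called in the same direction in both tissues were 1219 genes, 555 rises and 664 falls, which is 50.5% of the flesh calls and 43.8% of the skin calls; 13 were opposite. Log2 changes correlated at 0.66 across the 8878 genes and at 0.43 across all 13639, again a description. Whether skin and flesh of one number were taken from shared berries is not stated. The stage 1 libraries of seeded skin, at 2379176, 1116703 and 1953726 counts, were also shallower than those of stage 3, at 4101428 to 4516281. Their ENSRNA shares, at 0.622% to 1.66%, were higher than the 0.304% to 0.430% of stage 3; the part of depth and of these shares in the likeness of the tissues was not tested.

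A difference between the flesh and the skin change was called in 242 of 14841 genes (1.63%, edgeR interaction contrast). The flesh change was the more positive in 99 and the more negative in 143. Before adjustment, an edgeR p under 0.05 was met by 2165 of the 14841 genes, and by 3031 of 13639 against seedless flesh. The 2 contrasts come from separate fits with unlike errors, so their counts do not measure likeness. The flesh-skin contrast took skin and flesh libraries as unpaired. With replicate number as a block, 322 genes were called. With library totals as scaling the flesh-skin split was 62 and 204, and at equal depth 71 genes were called, 20 and 51. Without replicate 1 of seeded flesh stage 1 the count was 151, without replicate 3 of seeded skin stage 1 it was 137, and without replicate 2 of seeded skin stage 3 it was 161. VIT_18s0001g14480 on chromosome 18 had 0, 8.89 and 6.0004 CPM in flesh at stage 1 and 17.6, 15.3 and 18.3 CPM at stage 3, while in skin it had 19.7, 15.9 and 25.6 CPM and then 9.71, 15.2 and 14.6 CPM. Flesh libraries moved up without overlap of the stages, which was a condition of choice on the side with the larger change. Skin libraries moved down. The difference was 2.44 ± 0.52 log2 units (SE; edgeR adjusted p = 0.0059), and 2.11 ± 0.73 at equal depth, where the call was lost (edgeR adjusted p = 0.18). VIT_06s0009g01140 on chromosome 6 went from 3.21, 17.9 and 10.9 to 71.3, 66.4 and 48.3 CPM in skin, and in flesh from 4.34, 10.7 and 1.71 to 3.06, 1.96 and 0 CPM. Skin libraries rose without overlap, again by that condition, whereas flesh libraries overlapped between the stages. The difference was -4.06 ± 0.99 (SE; edgeR adjusted p = 0.033). The call was lost at equal depth, where the difference was -4.29 ± 1.32 (edgeR adjusted p = 0.13). It was also lost at -4.09 without replicate 1 of seeded flesh stage 1, at -3.30 without replicate 2 of that group and at -4.11 without replicate 2 of seeded flesh stage 3 (edgeR adjusted p = 0.089, 0.21 and 0.0503). It kept its call at -4.87 without replicate 1 of seeded flesh stage 3 and at -4.70 without replicate 3 of seeded flesh stage 1.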

How the data were processed

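Total RNA of flesh was made into libraries with Lasy-seq, which reads mainly the 3′ ends of transcripts, per the labels' protocols. The authors deposited raw read counts as whole numbers per gene and library, not normalized, in 30661 rows (29971 VIT and 690 ENSRNA). The submitters' processing notes name fastp 0.20.0, HISAT2 2.2.1 and featureCounts. Genome build, annotation, strand setting, multiple matches: not given in the sources used here, so reads of near-identical or overlapping genes may be split. 0 per-sample columns lay outside the 36 samples, and no summary rows were present.

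Counts were tested with edgeR 4.0.16 in R 4.3.3 over all 18 flesh libraries and 6 groups, which share 1 estimate of spread: filterByExpr (minimum count 10), scaling by TMM, a robust quasi-likelihood F-test, Benjamini-Hochberg adjustment over all genes, threshold 0.05. Skin entered a fit of all 36 libraries. The SE is the log2 change over the square root of F. CPM are TMM-scaled. DESeq2 1.42.0 was an alternative. Scripts were tested on simulated data. Equal depth means random thinning to 608901 counts. Pairs of libraries within a stage varied at least 3.45 times as much as counting alone gives, among genes that had at least 40 reads between them, so none was merged.

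Named genes: called at full and equal depth, no overlap of stages, mean of at least 10 CPM, 12 largest each way. Of these and of the genes of each difference, only 2 or 1 each way are printed, since the files used here do not pair identifiers with names; the genes with the most reads are described without identifiers. Product-name lists, including those for other tissues, have no result for the same reason. The genes of each difference passed the threshold for it at full depth and averaged at least 10 CPM over the groups compared. They also had no overlap of stages on the side with the larger change. Those printed had the largest difference each way. Members and lists were chosen with earlier results of these data known.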

Additional observations from a re-analysis of the deposited data

Results flagged for a closer look

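Changes that differed between seeded flesh and another group, by the interaction contrast, were marked for a closer look. They number 1095 genes against seedless flesh and 242 against seeded skin, in separate fits whose errors differ. Against seedless flesh, VIT_10s0003g01020 differed by 3.58 log2 units, rising in seeded and falling in seedless flesh, and VIT_07s0005g01980 by -5.29, falling in seeded and rising in seedless flesh. VIT_16s0039g00880 rose in both kinds of berry and by 2.77 log2 units more in seeded flesh (edgeR adjusted p = 0.0055). At equal depth that difference was 2.13 ± 0.87 (edgeR adjusted p = 0.15). With a library left out it ran from 2.30, without replicate 1 of seeded flesh stage 1, to 3.40, without replicate 3 of that group. VIT_01s0011g02720 fell in both and by a difference of -3.63 log2 units (edgeR adjusted p = 0.0032). At equal depth it was -3.22 ± 1.58 (edgeR adjusted p = 0.27), and without replicate 2 of seedless flesh stage 3 it was -2.40 ± 0.82 (edgeR adjusted p = 0.072). Against seeded skin, VIT_18s0001g14480 differed by 2.44 and VIT_06s0009g01140 by -4.06 log2 units. Seeded flesh at stage 1 was the shallowest group in both comparisons. At equal depth 482 and 71 genes were called. With 3 libraries a group, no library was tested as an outlier.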

How the results depend on the processing

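The count of genes changed in seeded flesh, 2413, was 1447 at equal depth and 1501 with only the 6 libraries. It was 1042 with those 6 at equal depth. Fewer genes pass the filter in these settings (9027, 10949 and 7363). With a minimum count of 30, however, 10942 genes were tested and 2343 called. The fits of only the 6 libraries also leave the other flesh libraries out of the estimate of spread. The part of each in the lower counts was not tested. Leaving out each library in turn gave 1870 to 2269 called genes, and DESeq2 gave 2609. The difference from seedless flesh, 1095 genes, was 482 at equal depth and 845 to 1118 with a library left out. The difference from seeded skin, 242 genes, was 71 at equal depth, 390 with DESeq2, 369 without a filter and 137 to 272 with a library left out; the cause was not tested. The root mean square change was 0.448 in seeded and 0.264 in seedless flesh with a pseudocount of 5, which shrinks low values by construction, and 0.496 to 0.547 and 0.291 to 0.319 with a library left out. The 4 named rises and falls passed under all 16 alternatives, with adjusted p of at most 9.3e-05 in any. They were chosen for passing at full and equal depth without overlap, so passing at equal depth was fixed. The other alternatives are no independent check of them. Of the 2413 genes, 3 had the opposite sign in some alternative. VIT_07s0130g00200 differed from seedless flesh with edgeR adjusted p = 0.026 without a filter, 0.048 with the replicate block and 0.031 without replicate 2 of seeded flesh stage 1 (range over alternatives to 0.63). Deviations of same-numbered stage 1 and 3 libraries of seeded flesh correlated at 0.036, 0.017 and 0.025. None was above 0.1, though each library correlated best with its own number. Same-numbered skin and flesh libraries were not checked for pairing. With the replicate block, the counts were 2412, 1111 and 322. Gene list alternatives were not run.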
